A study of Mus musculus with 14 samples.

Results

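RNA levels after 2 h of Torin1 were compared with those of the scrambled control (Scram) in mouse embryonic fibroblasts, with 1 RNA-seq library of each. Both belong to a series of 14 libraries, 7 of RNA-seq and 7 of ribosome-protected fragments (Ribo-seq). The comparison used the RNA-seq libraries alone, all genes, and Scram replicate 2, because its file and the Torin file list transcripts by the same rule. Of 10888 genes listed in either or in the replicate 2 libraries of the METTL3 and ABCF1 knockdowns (shMETTL3, shABCF1), 7473 reached a mean of at least 20 reads over these 4 libraries and are called measured. Torin1 was given at 250 nM. All cells were C57BL/6J fibroblasts grown with 10% serum, a short hairpin against METTL3 or ABCF1 marked the knockdown groups, and cycloheximide at 100 µg/ml was in the wash and lysis buffers of every group. The labels name DMSO as the vehicle without saying which libraries received it, and they do not say whether the Torin cells carried the scrambled hairpin. The hairpin and the drug therefore cannot be told apart where the groups may differ in both. RNA-seq fragments of 40 to 60 nt came from total RNA after removal of ribosomal RNA.

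mTOR is a kinase that works in a pair of complexes. The first, mTORC1, contains Raptor, promotes protein synthesis and ribosome production, and restrains autophagy by holding the transcription factor TFEB in the cytoplasm. The second, mTORC2, contains Rictor and activates the kinases AKT and SGK1, which keep FOXO transcription factors out of the nucleus. Torin1 competes with ATP and blocks both complexes, so FOXO and TFEB target genes are the textbook transcriptional readouts of such a block, while TOP mRNAs, whose 5′ end is a run of pyrimidines and which include those of all ribosomal proteins, are the textbook translational readout.

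Few RNA levels differed between Torin and Scram, and the pair was the closest of the 4 pairs of libraries compared. Levels here are RPKM (reads per length of transcript and per total of assigned reads) after the libraries were brought to 1 shared median, and differences are on the log2(level + 1) scale, which understates those of low genes. At least 2-fold higher with Torin were 30 genes (0.401% of those measured), and 86 were at least 2-fold lower (1.15%), so 1.55% differed by that size in either direction. Between shMETTL3 and shABCF1 replicate 2, a pair that holds neither Torin nor Scram, 560 genes (7.49%) differed as much, and 3.04% did between shMETTL3 and Scram and 6.92% between shABCF1 and Scram. The standard deviation of the log2 difference over all measured genes was 0.40 for Torin minus Scram, 0.73 for shMETTL3 minus shABCF1, 0.47 for shMETTL3 minus Scram and 0.64 for shABCF1 minus Scram. The last pair of comparisons share the Scram library with the first. For Torin, 87.2% of genes lay within 0.5 of 0, as the histogram of differences shows.

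**Figure D1:**
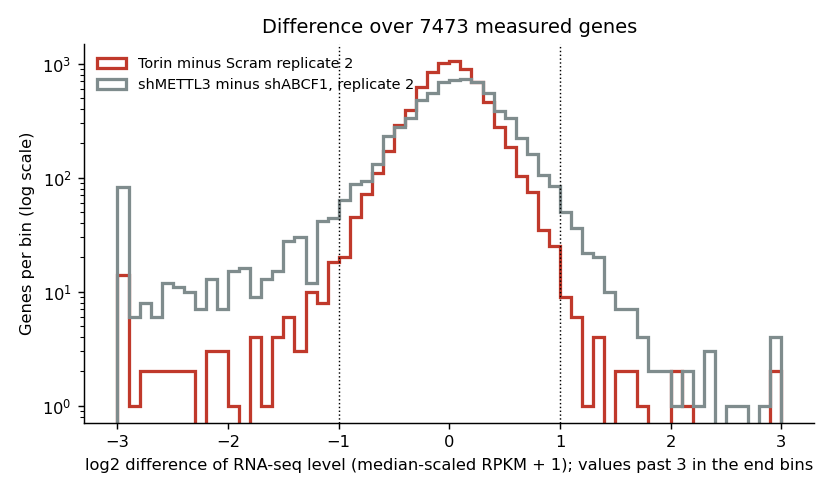
Number of genes (log scale) per bin of the log2 difference of RNA-seq level, for Torin minus Scram replicate 2 (red) and for shMETTL3 minus shABCF1 replicate 2 (grey), over 7473 measured genes. Dotted lines mark 2-fold; 116 genes lie past them for Torin against Scram and 560 for the knockdown pair.

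The share past 2-fold was highest among the least abundant genes. It was 2.10% among 2907 genes with a mean of 20 to 50 reads, 1.14% among 3498 with 50 to 200 and 1.40% among 1068 above that, against 8.74%, 6.55% and 7.21% for the knockdown pair. Without rescaling, all genes sat 0.17 lower with Torin on the log2 scale, and the split became 17 higher against 141 lower, or 10.8% higher in place of 25.9%. Differences are therefore stated relative to the median of all genes. With 1 library per group there is no replicate check and no test, and in bulk samples fewer cells of a type and less RNA per cell cannot be told apart. The other replicate 2 libraries serve as the scale of ordinary spread, although the knockdowns are not replicates of Scram.

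A fit over all 7 RNA-seq libraries, in which the lone Torin library is assumed to vary like the other groups, called 0 of 9752 genes with limma at a Benjamini-Hochberg adjusted p under 0.05, with 152 genes at an unadjusted p under 0.05. On simulated data the same fit recovered none of the changes put in, at any size tried, so this count says nothing of whether RNA levels differed. With the replicate number as a block, limma called 6 genes at a lowest adjusted p of 0.048. Hist1h2bl, a core histone gene, was the higher one, and Gins1, Ubl7, Tor2a, Smim11 and Psenen were lower, names chosen after their values were seen. The 5 lower genes were not listed with Torin, against 26 to 57 reads in Scram replicate 2, and Hist1h2bl had 8 reads with Torin and was not listed in any replicate 2 library.

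The Torin library held 1197859 assigned reads, against 1342760 in shMETTL3, 1395272 in shABCF1 and 3802703 in Scram replicate 2, so counting error was largest on the Torin side. Lars2 took 35.2% to 42.0% of the reads of these libraries and Tmem38b 8.17% to 10.8%, and both were left out before scaling, which left 619513 reads with Torin and 2168040 in Scram replicate 2. All 12 fibroblast markers were listed in each of the 4 libraries. Their deposited RPKM, before scaling, summed to 3839 with Torin, 3303 and 2882 in shMETTL3 and shABCF1, and 3902 in Scram. After scaling the sums were 3881 with Torin, 3279 and 3318 in shMETTL3 and shABCF1, and 3437 in Scram, with a median log2 difference of 0.22 between Torin and Scram. None of 10 leukocyte, 8 endothelial or 10 muscle and erythroid markers was listed with Torin, nor were Epcam and Cdh1 in any of the 4 libraries. Of the epithelial and neural lists, Krt14, Krt18 and Nes were measured, at log2 differences of -0.04, 0.17 and 0.06. Abcf1 stood at 41.7 with Torin, 20.6 in shABCF1 and 41.8 in Scram replicate 2. Mettl3 stood at 7.92 with Torin, 3.29 in shMETTL3 and 4.12 in Scram replicate 2, from only 19 reads with Torin and 36 in that Scram library.

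Genes that were higher with Torin are best read against all 3 other libraries. Of the 30, 23 (0.308% of genes measured) also exceeded Scram, shMETTL3 and shABCF1 replicate 2. The remaining 7, Akap8, Atpaf1, Cbx8, Cdc25a, Rnf225, Shroom2 and St3gal5, were higher still in shMETTL3 replicate 2. Of the 30, 29 had a Ribo-seq value, and 21 of these were higher with Torin there, 7 of them by at least 2-fold, against 50.6% and 1.81% of all genes with a Ribo-seq value. The Ribo-seq values come from other libraries and were not used to choose these genes. Whether both assays drew on the same cultures is not stated, and each has a lone Torin library. A shared direction in both assays is therefore no replicate of the treatment. The 12 named below had a mean of at least 50 reads and the largest differences among the 23. The interval printed with a ratio is the one that counting error alone gives it (exact, 95%), and since size chose these genes it is a description and no support for them.

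Klhl24 encodes a Kelch protein that brings substrates to the CUL3 ubiquitin ligase. It lies on chromosome 16 (20097542 to 20129221 in GRCm38) and had a level of 16.0 with Torin, against 3.43 in shMETTL3, 2.72 in shABCF1 and 3.19 in Scram replicate 2. These 3 replicate 2 libraries stood close together and the Torin library far above them. In the replicate 1 libraries, of the other listing rule, Klhl24 was higher, at 9.23 in Scram, 7.97 in shMETTL3 and 9.47 in shABCF1. Its log2 difference to Scram replicate 2 was 2.02, a ratio of 5.04 with a counting interval of 3.93 to 6.49, from 155 and 112 reads. The Ribo-seq difference was 1.67.

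Hbp1 encodes an HMG-box repressor that restrains cell cycle entry. Its level was 20.7 with Torin, against 4.94 in shMETTL3, 7.09 in shABCF1 and 5.97 in Scram, again with the libraries other than Torin in a narrow band. The log2 difference was 1.64 (ratio 3.46, counting interval 2.50 to 4.79), and in Ribo-seq it was 1.53. Mnt, a partner of MAX that represses MYC target genes, stood at 17.5 with Torin, 5.80 in shMETTL3, 3.60 in shABCF1 and 6.00 in Scram, a log2 difference of 1.40 in RNA-seq and 1.32 in Ribo-seq. Pim1 encodes a growth-promoting serine/threonine kinase. Its level of 55.7 with Torin compared with 21.6 in shMETTL3, 16.9 in shABCF1 and 18.8 in Scram, and its log2 difference was 1.52 (ratio 2.96, counting interval 2.42 to 3.63), with 1.40 in Ribo-seq.

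A pair of mTORC2 genes was among the 12. Rictor, the defining subunit of mTORC2, lies on chromosome 15 (6708383 to 6800401). It stood at 25.4 with Torin, 22.6 in shMETTL3, 5.85 in shABCF1 and 5.22 in Scram, a log2 difference of 2.08. Torin and shMETTL3 were thus both high and nearly equal, so the level of a library without the drug came within a small distance of that with it. The Ribo-seq difference of Rictor was 0.50. Prr5l, which encodes a protein that binds mTORC2, was at 15.1 with Torin, 8.09 in shMETTL3, 9.41 in shABCF1 and 5.82 in Scram, with a log2 difference of 1.24 in RNA-seq and 0.82 in Ribo-seq.

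Prdx4, a peroxiredoxin of the endoplasmic reticulum, had the largest difference of the 12, with 131 with Torin, 76.2 in shMETTL3, 18.3 in shABCF1 and 15.0 in Scram (log2 difference 3.05). It was also the one named gene that was lower with Torin in Ribo-seq, by a log2 difference of -0.49, and its shMETTL3 level lay well above the other libraries without the drug. Klhl21, which encodes a CUL3 adaptor that acts in mitosis, was at 45.7 with Torin, 12.6 in shMETTL3, 14.5 in shABCF1 and 21.8 in Scram. Zfp655, a zinc finger gene, was at 13.4 with Torin, 4.50 in shMETTL3, 3.82 in shABCF1 and 5.70 in Scram. Their log2 differences were 1.04 and 1.10, and in Ribo-seq 0.79 and 1.07. In both genes the Torin library stood apart from the replicate 2 libraries. In all, 11 of the 12 were higher with Torin in Ribo-seq and 5 by at least 2-fold.

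**Figure D2:**
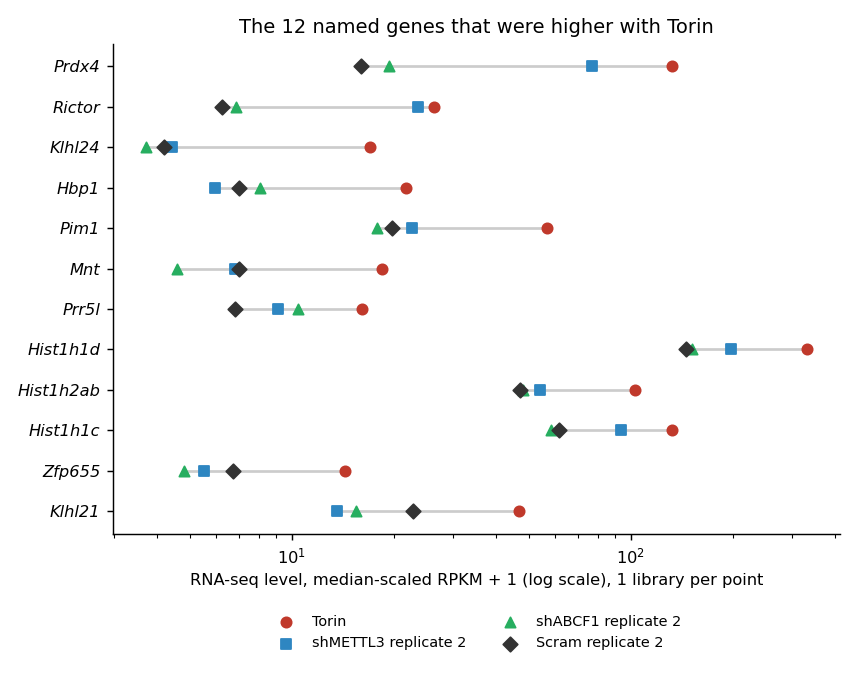
RNA-seq level (median-scaled RPKM + 1, log scale) of the 12 named genes that were higher with Torin, 1 point per library. In Klhl24, Hbp1, Pim1 and Mnt the Torin point stands apart from a cluster of the 3 others, while in Rictor and Prdx4 the shMETTL3 point lies nearer to Torin than to Scram.

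Set against the Scram library of the other replicate, whose file follows another listing rule, 11 of the 12 were still higher with Torin, 8 of them by at least 2-fold. Of all measured genes, 21.7% were at least 2-fold higher against that library and 11.5% at least 2-fold lower, so the count has a much larger background than the one against replicate 2. The log2 difference of Rictor was 0.93 in that setting. Zfp655 was the exception, with a log2 difference of -0.42. The replicate 1 files list several transcripts for many genes, of which 1 was kept. Levels compared across the listing rules may therefore not cover the same reads, here and wherever Scram replicate 1 is used below.

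The last 3 of the 12 are histone genes, whose mRNAs lack a poly(A) tail and are retained in libraries made from total RNA. The linker histone gene Hist1h1d was at 331 with Torin, 197 in shMETTL3, 151 in shABCF1 and 145 in Scram. It rested on 2914 reads with Torin, and its ratio to Scram of 2.29 had a counting interval of 2.18 to 2.40. Hist1h1c, a second linker histone gene, was at 131 with Torin, 92.4 in shMETTL3, 57.1 in shABCF1 and 60.6 in Scram, a log2 difference of 1.11. The core histone gene Hist1h2ab was at 102 with Torin, 53.1 in shMETTL3, 47.1 in shABCF1 and 46.0 in Scram, a log2 difference of 1.13. Their Ribo-seq differences were 0.94, 0.82 and 0.35 in the same order.

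Of 64 replication-dependent histone genes listed for this purpose, 37 were measured. With Torin 29 of the 37 were above Scram and 8 below, 4 by at least 2-fold upward, and 21 were above all 3 other libraries. Of all measured genes, 51.2% were above Scram, 0.401% were at least 2-fold higher and 26.5% were above all 3. The median log2 difference was 0.33, against 0.01 over all genes, with a range of -0.38 to 1.19. The median between shMETTL3 and Scram was 0.26 and between shABCF1 and Scram -0.09. In Ribo-seq 18 of 35 histone genes were above 0, with a median of 0.01. Histone genes are near-identical copies, and reads that fit several of them may have been split among them, so single histone values are uncertain.

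The group of FOXO targets and growth restraint genes had a median log2 difference of 0.28 over its 31 measured members of 49. Above Scram were 21 and below it 10, and 16 exceeded all 3 other libraries, beside the 51.2% and 26.5% of all measured genes that did so. The counting interval of the ratio lay above 1 for 13 of the 31 and below 1 for 1, against 8.48% and 5.25% of the measured genes that have a ratio. Such an interval is narrower in genes with more reads, so its share depends on abundance as well. The share above 1 was not particular to this group: it was 40.9% for NF-kB genes, 40.5% for histones, 27.5% for collagen and matrix genes and 2.78% for nuclear oxidative phosphorylation genes. In the other replicate 2 libraries the same group had a median difference to Scram of -0.09 in shMETTL3 and -0.31 in shABCF1. Among the replicate 1 libraries the medians to Scram were 0.10 in both knockdowns, over the 30 genes listed in all of them. In Ribo-seq 25 of the 31 were above 0 (50.6% of all genes with a value), with a median of 0.53. The group median stayed above 0 under all 12 alternatives tried, between 0.09 and 0.51.

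Past 2-fold in that group were Hbp1, given above, and Txnip, which encodes an arrestin that limits glucose uptake. Txnip was at 18.2 with Torin, 9.94 in shMETTL3, 5.55 in shABCF1 and 8.60 in Scram, a log2 difference of 1.00 in RNA-seq and 1.61 in Ribo-seq, but of 0.10 in RNA-seq against Scram replicate 1. Irs2, an adaptor that couples insulin receptors to PI3 kinase, lay just inside the 2-fold line at 0.99, with levels of 38.4 with Torin, 25.5 in shMETTL3, 14.4 in shABCF1 and 18.9 in Scram. Its Ribo-seq difference was 1.37. In both genes the Torin library was the highest of the 4, and the next was shMETTL3. Btg1, an antiproliferative gene named after its values were seen, followed at 0.95, and Btg2 of the same family was lowest of the group, at a level of 11.7 with Torin against 18.3 in Scram.

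Forkhead factors bind the letters GTAAACA or their reverse complement. These were searched on both strands of the RefSeq promoters (GRCm38.p6, from 250 bases before the gene start to 50 after), which were at hand for 5943 measured genes. The motif was in 160 of them (2.69%). It was in the promoters of 2 of the 8 named higher genes with a promoter, Hbp1 and Pim1, though in Pim1 only at the second of its listed starts, and of 5 of 27 genes of the FOXO group, Klf9, Bcl2l11, Btg1, Txnip and Hbp1. FOXO targets are in part known through such sites, so the group was not chosen independently of the motif. The E-box CACGTG, read by TFEB, MYC and MNT among others, was in 12.9% of genes in 3 of the 8 (Prdx4, Pim1 and Mnt) and in 9 of the 27. The cyclic AMP response element TGACGTCA was in 4.0% of genes, 0 of the 8 and 2 of the 27. These motifs do not overlap one another, and a match says only that the letters are there.

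The promoters of the 2 higher genes that carry the forkhead letters, and that of Txnip, are shown with the motif in capitals, 5′ to 3′ on the strand of the gene. The motif starts 149 bases before the gene start in Hbp1 (chr12:31950196-31950495, minus strand), 121 before it in Txnip (chr3:96557707-96558006, plus strand) and 70 before the downstream start of Pim1 (chr17:29492835-29493134, plus strand). In Pim1 an E-box, also in capitals, begins 58 bases before the same start. The promoter at the upstream start of Pim1, the one next to the annotated start of the gene, holds neither motif.
Hbp1: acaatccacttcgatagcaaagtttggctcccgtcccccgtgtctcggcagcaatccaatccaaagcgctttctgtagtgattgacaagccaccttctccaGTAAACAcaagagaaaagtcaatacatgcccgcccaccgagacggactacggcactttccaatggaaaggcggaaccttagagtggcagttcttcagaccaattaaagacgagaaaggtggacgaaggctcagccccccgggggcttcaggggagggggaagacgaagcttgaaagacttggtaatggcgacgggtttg
Txnip: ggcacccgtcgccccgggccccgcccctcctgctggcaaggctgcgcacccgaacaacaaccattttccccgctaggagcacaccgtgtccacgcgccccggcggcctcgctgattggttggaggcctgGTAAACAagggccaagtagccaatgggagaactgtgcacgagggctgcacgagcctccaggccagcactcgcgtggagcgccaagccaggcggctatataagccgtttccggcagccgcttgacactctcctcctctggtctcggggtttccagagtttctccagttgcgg
Pim1: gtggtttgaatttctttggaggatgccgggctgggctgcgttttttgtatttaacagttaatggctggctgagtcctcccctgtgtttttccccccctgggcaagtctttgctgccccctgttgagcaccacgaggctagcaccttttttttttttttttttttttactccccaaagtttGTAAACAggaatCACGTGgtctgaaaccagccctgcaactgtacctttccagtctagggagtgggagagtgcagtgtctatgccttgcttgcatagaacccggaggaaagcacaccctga

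The mTOR pathway itself was mixed. Of 50 genes listed, 36 were measured, 19 above Scram and 17 below, with a median of 0.10 that turned to -0.10 without rescaling and to -0.34 against Scram replicate 1. Past 2-fold were Rictor and Sgk1, both higher. Sgk1, a kinase activated by mTORC2, was at 10.6 with Torin, 1.67 in shMETTL3, 1.33 in shABCF1 and 4.64 in Scram, from 39 reads with Torin. The folliculin partners Fnip1 and Fnip2, which act in lysosomal amino acid sensing, were at 12.3 and 5.67 with Torin against 5.85 and 3.14 in Scram, log2 differences of 0.96 and 0.69, which were -0.15 and 0.18 against Scram replicate 1. Folliculin itself (Flcn), named after its value was seen, was at 16.0 with Torin and 10.8 in Scram, and Fnip1, Fnip2 and Flcn were each higher with Torin than in all 3 other libraries.

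The kinase gene Mtor was at 8.18 with Torin and 9.41 in Scram, and Rptor, which encodes Raptor, at 12.7 with Torin and 10.3 in Scram. Neither ratio had a counting interval that left out 1, and the same held for Rps6kb1, an S6 kinase gene, and Larp1, which encodes a binder of TOP mRNAs, at log2 differences of -0.14 and -0.13. The eIF4E-binding repressors Eif4ebp1 and Eif4ebp2 were lower. Eif4ebp1 was at 44.7 with Torin, 60.3 in shMETTL3, 37.9 in shABCF1 and 70.8 in Scram, a log2 difference of -0.65 in RNA-seq and -2.03 in Ribo-seq. Eif4ebp2 was at 13.2 with Torin, 17.8 in shMETTL3, 27.7 in shABCF1 and 20.5 in Scram, with -0.59 and -1.67. Its Ribo-seq value rested on only 7 reads with Torin and 46 in Scram. Torin was the lowest library for Eif4ebp2 and the second lowest for Eif4ebp1. Ddit4 and Sesn2, stress-induced brakes on mTORC1, were not listed with Torin and had 36 and 46 reads in Scram replicate 2, and both lay under the read minimum.

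Lysosome and autophagy genes of the TFEB type were shifted by a small amount. Of 51 measured (59 listed), 34 were above Scram (51.2% of all genes) and 17 below, 28 exceeded all 3 other libraries (26.5% of all genes), and none reached 2-fold. The median was 0.20 with a range of -0.84 to 0.82, the counting interval lay above 1 for 16 (8.48% of all genes) and below 1 for none, and in Ribo-seq the median was -0.14. Against Scram replicate 1 in place of replicate 2 the median was -0.02, and so was the difference of Nbr1. Nbr1, an autophagy receptor, was at 20.98 with Torin, 12.4 in shMETTL3, 11.4 in shABCF1 and 12.6 in Scram. Vps18, a subunit of the complexes that tether endosomes and lysosomes, was at 12.1 with Torin, 7.48 in shMETTL3, 5.90 in shABCF1 and 7.03 in Scram. The hexosaminidase gene Hexa was at 29.4 with Torin, 20.6 in shMETTL3, 11.5 in shABCF1 and 18.8 in Scram. In these 3 genes Torin was the highest library. Tfeb itself was at 5.51 with Torin and 9.18 in Scram, from 15 and 91 reads, with a counting interval of the ratio of 0.32 to 1.04.

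TOP mRNAs were close to their level in Scram replicate 2, with a small lean upward after rescaling. None of 72 measured cytosolic ribosomal protein genes differed by 2-fold, and their log2 differences ran from -0.62 to 0.46. Above Scram were 53 (51.2% of all genes) and below it 19, and 28 exceeded all 3 other libraries (26.5% of all genes). The counting interval lay above 1 for 19 (8.48% of all genes) and below 1 for none. Their median was 0.08 and became -0.12 without rescaling. Against Scram replicate 1 the median was 1.14, so the small difference holds for the control library of the same listing rule alone. The same genes had a median of -2.13 in Ribo-seq, where 71 of the 72 had a value and all 71 were below 0. The 26 other TOP mRNAs measured had medians of 0.07 in RNA-seq, or -0.13 without rescaling, and -0.91 in Ribo-seq. Their counting interval lay above 1 for 8 and below 1 for none. Npm1, which encodes nucleophosmin, was at 298 with Torin, 293 in shMETTL3, 285 in shABCF1 and 248 in Scram.

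**Figure D3:**
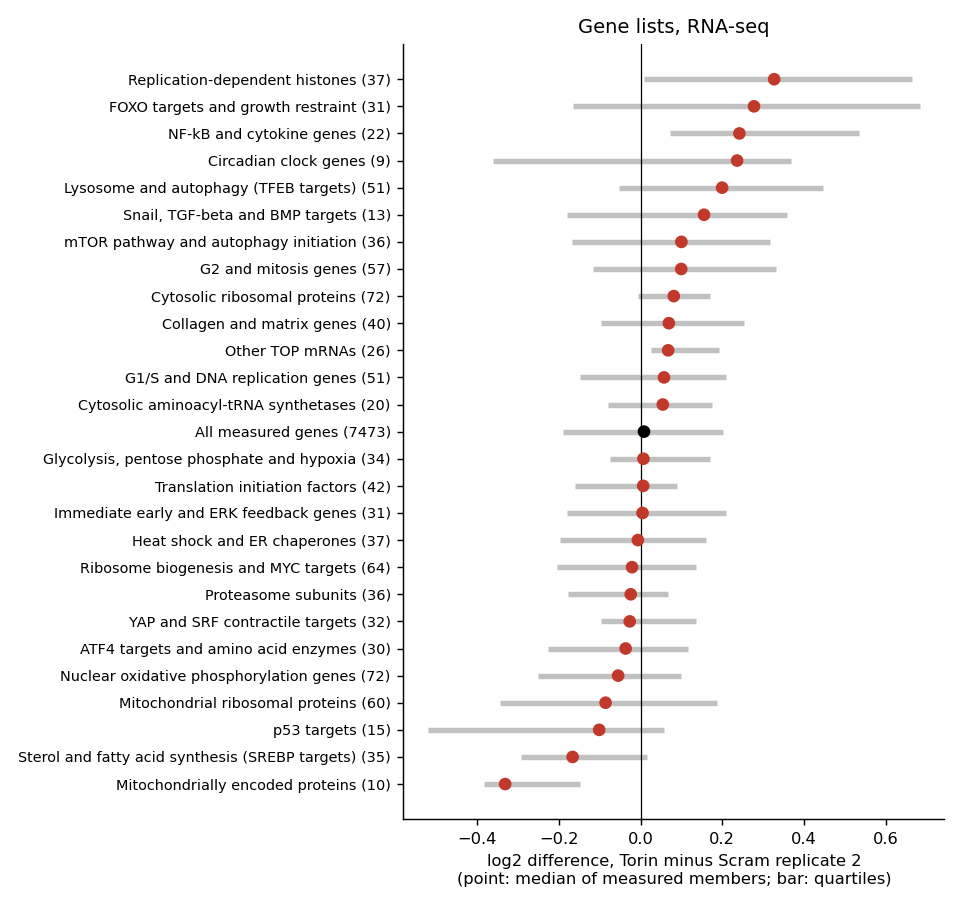
Median (point) and quartiles (bar) of the RNA-seq log2 difference, Torin minus Scram replicate 2, for gene lists with the number of measured members in brackets. Histones, FOXO targets and NF-kB genes have the highest medians (0.33, 0.28 and 0.24), mitochondrially encoded genes the lowest (-0.33), and all measured genes lie at 0.01.

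Genes of growth factor and inflammatory signalling were near the level of Scram replicate 2 with Torin, while they were lower in both knockdown libraries of that replicate. Over 31 immediate early and ERK feedback genes the median difference to Scram was 0.005 with Torin, -1.25 in shMETTL3 and -1.24 in shABCF1. These 3 values share the Scram library. The replicate 1 libraries did not show it, with medians to Scram replicate 1 of 0.09 in shMETTL3 and 0.38 in shABCF1 over the 28 genes listed in all of them, and Torin was 0.76 above Scram replicate 1, so the pattern is one of the replicate 2 libraries. Dusp4, a phosphatase that acts on ERK, was at 69.9 with Torin, 17.8 in shMETTL3, 21.1 in shABCF1 and 44.2 in Scram. The transcription factor gene Maff was at 37.6 with Torin, 7.27 in shMETTL3, 8.54 in shABCF1 and 22.2 in Scram. Torin and Scram were thus both above the knockdown libraries, with Torin the higher.

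The NF-kB and cytokine group had 22 measured members, of which 17 were above Scram, 17 exceeded all 3 other libraries and 1 was 2-fold lower, beside 51.2%, 26.5% and 1.15% of all genes. Its medians were 0.24 with Torin, -1.03 in shMETTL3 and -0.97 in shABCF1, each against the same Scram library, and in Ribo-seq 0.45 with Torin. In replicate 1 the medians to Scram were -0.28 in shMETTL3 and 0.11 in shABCF1, over 19 genes. Vcam1, an adhesion molecule, was at 42.3 with Torin, 5.12 in shMETTL3, 7.38 in shABCF1 and 22.5 in Scram. Tnfaip3, which encodes the NF-kB inhibitor A20, was at 13.2 with Torin, 1.34 in shMETTL3, 2.43 in shABCF1 and 8.17 in Scram. Both were highest with Torin and far lower in the knockdowns than in Scram. Nfkb1, the precursor of the p50 subunit, was the lower gene, with 18.2 with Torin, 18.3 in shMETTL3, 34.7 in shABCF1 and 38.9 in Scram, but its Ribo-seq difference was 0.43, and against Scram replicate 1 its RNA-seq difference turned to 0.42.

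Sterol and fatty acid synthesis genes, the SREBP targets, leaned downward with Torin. Of 35 measured, 11 were above Scram and 24 below, with a median of -0.17, and the counting interval lay below 1 for 10 and above 1 for 2, beside 5.25% and 8.48% of all genes. Against Scram replicate 1 the median turned to 0.27. The medians of shMETTL3 and shABCF1 against the same Scram library were -0.72 and -0.84, with 0.04 and -0.14 among the replicate 1 libraries, and no member was lower with Torin than in all 3 other libraries. Hmgcs1, the synthase that feeds the mevalonate pathway, was at 27.2 with Torin, 28.4 in shMETTL3, 16.6 in shABCF1 and 45.3 in Scram. Sqle, the squalene epoxidase, was at 23.3 with Torin, 19.6 in shMETTL3, 18.9 in shABCF1 and 37.7 in Scram. Torin lay between the knockdown values for Hmgcs1 and just above them for Sqle. Srebf1 and Srebf2, which encode the SREBP factors, had log2 differences of 0.25 and 0.01.

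Other growth-related groups had medians near 0, with single genes on either side. Atf4, the stress transcription factor that mTORC1 sustains, was at 82.7 with Torin, 114 in shMETTL3, 88.1 in shABCF1 and 129 in Scram, a log2 difference of -0.64, while the 30 measured ATF4 targets and amino acid enzymes had a median of -0.04. Myc was at 33.6 with Torin and 26.3 in Scram, and Hif1a at 26.4 and 18.1 in the same order. Ccnd1, which encodes cyclin D1, was at 13.3 with Torin and 13.9 in Scram. The medians were -0.02 for 64 ribosome biogenesis genes, 0.01 for 34 glycolysis and hypoxia genes, 0.06 for 51 G1/S genes and 0.10 for 57 G2 and mitosis genes. Gapdh and Actb differed by -0.04 and -0.09.

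The remaining 10 groups had medians between -0.10 for p53 targets and 0.24 for clock genes. Among 9 measured clock genes, Nr1d2, which encodes the repressor REV-ERB beta, was at 18.1 with Torin, 12.1 in shMETTL3, 11.0 in shABCF1 and 9.39 in Scram. Bhlhe40, a repressor under clock control, was at 49.1 with Torin, 16.1 in shMETTL3, 11.4 in shABCF1 and 28.6 in Scram. Torin was the highest of the 4 libraries for both, and their Ribo-seq differences were 1.18 and 1.16, but Nr1d2 was at -0.19 against Scram replicate 1. Ankrd1, a YAP target, was at 152 with Torin, 15.9 in shMETTL3, 41.6 in shABCF1 and 108 in Scram. In replicate 1 it was at 24.1 in shMETTL3, 70.5 in shABCF1 and 44.4 in Scram, so the order of Scram and shABCF1 was the other way round there. The small heat shock gene Cryab was lowest with Torin, at 22.8, against 57.4 in shMETTL3, 35.5 in shABCF1 and 38.1 in Scram.

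Mitochondrially encoded mRNAs were the group with the lowest median. Of 10 measured, 9 were below Scram (3634 of all 7473 genes) and 7 below all 3 other libraries (26.6% of all genes). Their median was -0.33, and the counting interval lay below 1 for 6 (5.25% of all genes). The medians of shMETTL3 and shABCF1 to the same Scram library were -0.06 and -0.14. Among the replicate 1 libraries, over the 8 genes listed in all of them, the medians to Scram were 0.94 in shMETTL3 and 1.485 in shABCF1. Libraries without the drug thus differed there by more than Torin did from Scram replicate 2. mt-Nd2, a subunit of complex I, was at 51.2 with Torin, 91.2 in shMETTL3, 98.6 in shABCF1 and 109 in Scram, a log2 difference of -1.07. mt-Nd6 was the gene above 0, at 384 with Torin and 338 in Scram. The 72 nuclear oxidative phosphorylation genes had a median of -0.06, with 33 below all 3 other libraries (26.6% of all genes). In Ribo-seq 6 of the 10 mitochondrially encoded genes were above 0, and mt-Nd2 was at 0.06.

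Genes that were lower with Torin were less well defined than those that were higher. Of the 86, 54 (0.723% of genes measured) were also below all 3 other libraries. With Torin 47 of the 86 were not listed, which means under about 5 reads, and for these no fold is given. The highest of the 4 libraries was shABCF1 for 49 of the 86 (57%), against 26.3% of all measured genes. A Ribo-seq value was present for 59.3% of them, against 96.9% of all, and 31 of those 51 genes were lower with Torin there, 5 by at least 2-fold, against 49.4% and 4.1% of all genes with a value. Without the genes not listed with Torin, 39 were at least 2-fold lower. The Torin library was also the shallowest of the 4, and the part of depth in these counts was not tested.

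Of the 12 lower genes named by the same rule, Tmem268, Dhtkd1, Srl, Rassf5, Zic5 and Txlng were not listed with Torin. Dhtkd1, a subunit of a mitochondrial dehydrogenase of lysine breakdown, stood at 2.70 in shMETTL3, 7.08 in shABCF1 and 10.6 in Scram, the last from 250 reads. Tmem268 stood at 7.66 in shMETTL3, 3.73 in shABCF1 and 23.4 in Scram. Srl, Rassf5, Zic5 and Txlng were instead highest in shABCF1, at 29.9 to 82.5, while Scram held 4.56 to 9.03.

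The 6 others were counted in every library. Dnajb1, a heat-inducible co-chaperone of HSP70, was at 5.97 with Torin, 9.48 in shMETTL3, 11.3 in shABCF1 and 15.1 in Scram, a log2 difference of -1.21 (ratio 0.39, counting interval 0.24 to 0.61), and it was the one named lower gene that was also 2-fold lower in Ribo-seq, at -1.14. Cdc42se1, a small effector of the GTPase CDC42, was at 6.92 with Torin, 14.8 in shMETTL3, 11.2 in shABCF1 and 19.1 in Scram (log2 difference -1.34). In both genes the Torin library lay below a moderate spread of the others of its set. Against Scram replicate 1 the log2 difference of Cdc42se1 turned to 0.16, and of the 12 named lower genes 5 were above 0, 4 of them by at least 2-fold, and 6 were below 0, 5 of them by at least 2-fold. Ankrd60, Micu3, Cend1 and Coq7 had another pattern. Micu3, which encodes a regulator of mitochondrial calcium uptake, was at 10.3 with Torin, 19.0 in shMETTL3, 224 in shABCF1 and 45.9 in Scram. Coq7, a hydroxylase of ubiquinone synthesis, was at 16.0 with Torin, 19.5 in shMETTL3, 178 in shABCF1 and 38.5 in Scram. Their spread among the libraries without the drug exceeded the distance of Torin to Scram. Ankrd60 ran in the same order, with 26.5 with Torin, 98.2 in shMETTL3, 960 in shABCF1 and 185 in Scram.

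**Figure D4:**
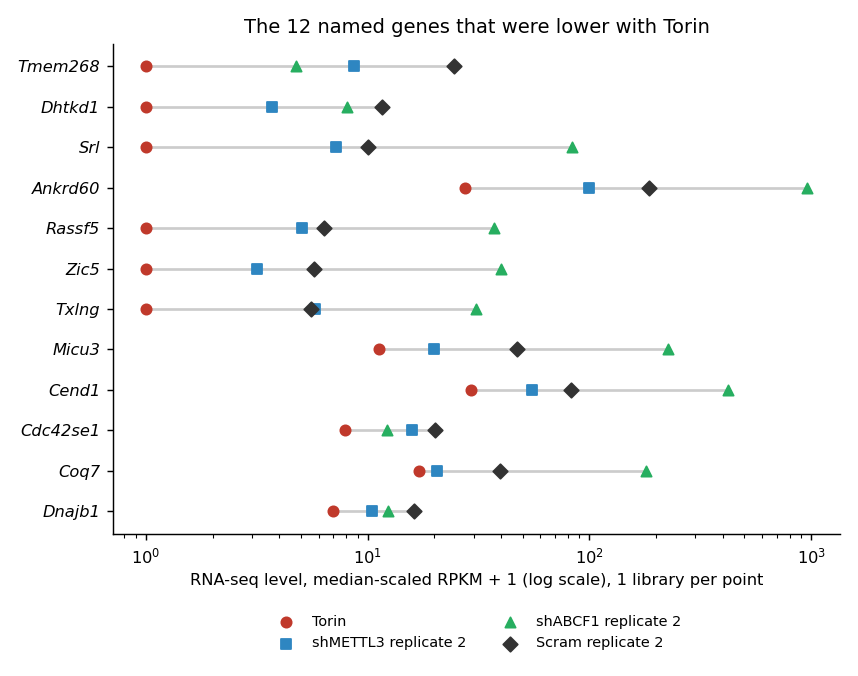
RNA-seq level (median-scaled RPKM + 1, log scale) of the 12 named genes that were lower with Torin, 1 point per library; a point at 1 is a library in which the gene was not listed. The shABCF1 point is the highest in 8 of the 12, and 6 genes were not listed with Torin.

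Among the 12 named lower genes, 7 had a Ribo-seq value and 4 of these were lower with Torin, compared with 11 of 12 named higher genes that were higher, as the plot of both assays shows. The other 5 lower genes did not reach the read minimum in Ribo-seq.

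**Figure D5:**
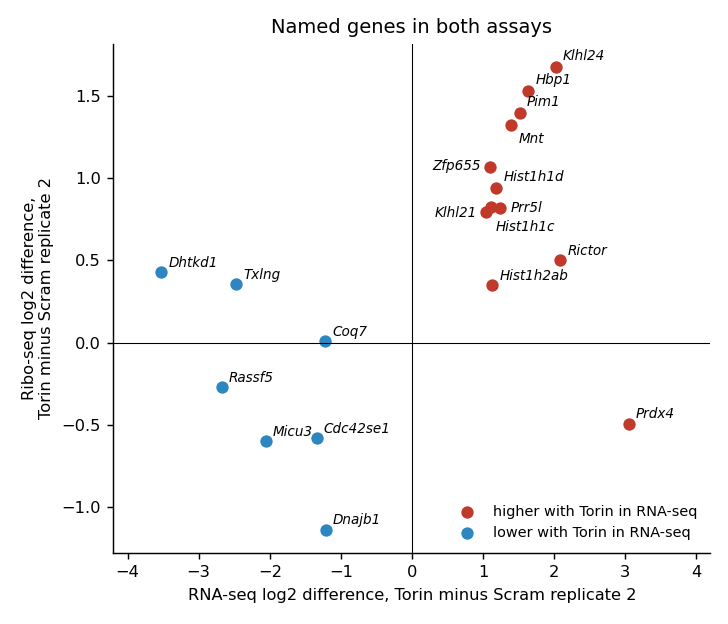
Log2 difference, Torin minus Scram replicate 2, in RNA-seq (x) and Ribo-seq (y) for the named genes with a Ribo-seq value, 12 higher (red) and 7 lower (blue) with Torin in RNA-seq. Of the 12, 11 lie above 0 in Ribo-seq, with Prdx4 at -0.49, and Dnajb1 is the lowest at -1.14.

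Transcript length and base composition differed little between the sets. The median transcript length was 2961.5 bases for the 30 higher genes, 2938 for the 86 lower genes and 3293 for all measured, and the median GC content was 49.3%, 51.5% and 50.4% in the same order.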

How the data were processed

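The authors deposited RPKM per Ensembl transcript for each library. The submitters' processing notes name cutadapt, Bowtie and the build GRCm38. Versions and the rule for counting reads were not given in the sources used here. Transcript identifiers were matched to GENCODE M21 (34 of 10932 did not match) and 1 transcript was kept per gene. Deposited RPKM times transcript length gave whole multiples of 1 step, within 0.02 reads, for 80.5% to 81.5% of values, and the step gave each depth. Since the other values were not whole, no count model was fitted to test for differences. Files of Torin and replicate 2 list transcripts from about 5 reads, those of replicate 1 from 1 read, and a gene not listed was set to 0. The rules also differ in transcripts per gene. Scram replicate 1 lists 16603 transcripts of 12137 genes, and Scram replicate 2 lists 10786 of 10744. As 1 transcript was kept per gene, a replicate 1 level may leave out reads given to other transcripts of that gene. Actg1 was at 16.8 in Scram replicate 1 and 1419 in Scram replicate 2. Lars2 and Tmem38b were left out, libraries were brought to the same median over genes with a mean of at least 20 reads, and 1 RPKM was added before log2. Counting intervals are exact 95% intervals of a binomial share, taken from reads rounded to whole numbers, and cover counting error only. The limma 3.58.1 fit in R 4.3.3 was tested on simulated data. For the blocked fit the Torin library took the level of replicate 2. Deviations from group means of same-numbered RNA-seq libraries correlated at 0.86 to 0.91. Replicate number goes with the listing rule, so this correlation cannot show that same-numbered libraries were paired, and the block cannot be told apart from the rule. Whether replicates were separate cultures is not stated, and p-values then describe only how these libraries spread, which may be technical. Over all pairs of libraries, log2 levels correlated across genes at 0.86 to 0.97 within a listing rule and 0.51 to 0.59 between them. Named genes are the 12 largest differences in each direction past 2-fold with a mean of at least 50 reads and a Torin level outside the range of the other 3 libraries, the 3 largest differences of each list, and a fixed set of pathway genes. The genes, lists and alternatives were chosen with earlier results of these data known. Python 3.11.15, pandas 2.3.3 and scipy 1.17.1 were used.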

Additional observations from a re-analysis of the deposited data

How the results depend on the processing

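With 1 Torin library of low depth, differences of genes with few reads were not detectable, and the filter on low values and the choice of control library moved the counts by large factors. Of genes 2-fold higher and lower, and of those also outside the range of the other 3 libraries, there were 30, 86, 23 and 54. These became 16, 26, 10 and 15 with a pseudocount of 5 RPKM, 99, 913, 79 and 303 with no filter on low values, 12, 21, 5 and 12 at a mean of at least 100 reads, 17, 141, 10 and 105 with no rescaling, 101, 156, 85 and 99 against the mean of the 3 other libraries, and 1624, 862, 590 and 521 without Scram replicate 2, where Scram replicate 1 of the other listing rule stands in. The cause was not tested. Among genes listed with Torin and in Scram replicate 2 alone, an alternative added after the data were seen, 39 were 2-fold lower. Without shABCF1 replicate 2, also added then, the counts were 31, 82, 24 and 65. The knockdown pair's 560 became 302 with the pseudocount of 5 RPKM, 1532 with no filter and 188 at 100 reads. Without Scram replicate 2 the log2 differences of 7 genes turned, where those without shABCF1 replicate 2 did not: -0.42 and 1.10 for Zfp655, 4.90 and -2.77 for Ankrd60, 1.63 and -2.06 for Micu3, 4.67 and -1.50 for Cend1, 0.16 and -1.35 for Cdc42se1, 1.18 and -1.22 for Coq7, and 0.42 and -1.06 for Nfkb1. Of the list medians, those of FOXO targets, histones, NF-kB genes, clock genes, mitochondrially encoded genes, mitochondrial ribosomal proteins and the proteasome kept their sign under all 12 alternatives. The sterol median became 0.36 against the mean of the 3 other libraries. The limma fit called 0 genes without the replicate block under every alternative. With the replicate block it called 6, and 0 to 34 with a library left out: 34 without shABCF1 replicate 1, 33 without shABCF1 replicate 2 and 0 without each of the others.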
